A study of Mus musculus with 12 samples.

Results

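The genes followed here are 8 genes of the germ line and of meiosis: Rec8, Sycp1, Sycp3, Stra8, Dazl, Ddx4, Mael and Aurkc. They were picked by gene symbol from the deposited gene counts, where all 8 were found among 54532 genes, and all 8 were among the 28643 genes kept by the filter on low counts. The cells were E14 mouse embryonic stem cells, grown on gelatin with serum, LIF and the 2i kinase inhibitors. Wild-type (WT) cells, p53 knockout cells (p53 KO) and knockout cells for Dux, which switches on genes of the cleavage-stage embryo (Dux KO), each received DMSO as vehicle or 1 uM doxorubicin. After 6 h the medium was changed for one without drug, for a time not given in the sources used here. Doxorubicin poisons topoisomerase II and breaks DNA. Each of the 6 groups has 2 libraries of poly(A) RNA, called biological duplicates by the submitters. Both WT libraries carry the name of 1 line, while the p53 KO and Dux KO libraries are lines 1 and 2 of each knockout, so that in the knockouts the spread between replicates also holds the difference between lines. The kind of edit in the knockouts was not given in the sources used here.

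Germ cells express a set of genes that other cells keep silent, and meiosis needs many of them. Stra8 and the RNA-binding proteins Dazl and Ddx4 act in germ cells before and at entry into meiosis, Rec8, Sycp1 and Sycp3 build the meiotic chromosome, Mael protects the germ line from transposons in the piRNA pathway, and Aurkc is an Aurora kinase of meiotic cells. In embryonic stem cells many germline genes are held down by DNA methylation and by a Polycomb complex, PRC1.6, which contains E2f6, Mga and Max and reads E2F and E-box sequences in their promoters.

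The promoters of the 5 genes on which the results below turn are shown so that these sequences can be seen in place. Each runs from 250 bases before to 50 bases after the start site, in the direction of the gene, from the RefSeq table for GRCm38.p6 (the mm10 build), in which all 8 genes were matched. Capitals mark the E2F core TTCCCGC or its reverse complement GCGGGAA, and the E-box CACGTG. Both strands were searched. They are Rec8 (chr14:55617916-55618215, plus strand), Aurkc (chr7:6995135-6995434, plus strand), Ddx4 (chr13:112652261-112652560, minus strand), Sycp3 (chr10:88459337-88459636, plus strand) and Mael (chr1:166238695-166238994, minus strand).
Rec8: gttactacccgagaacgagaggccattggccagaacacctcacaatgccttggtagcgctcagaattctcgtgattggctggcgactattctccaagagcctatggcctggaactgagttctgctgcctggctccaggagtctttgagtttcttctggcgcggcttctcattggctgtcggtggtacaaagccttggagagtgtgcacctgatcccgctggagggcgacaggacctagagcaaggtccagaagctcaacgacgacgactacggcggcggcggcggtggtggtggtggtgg
Aurkc: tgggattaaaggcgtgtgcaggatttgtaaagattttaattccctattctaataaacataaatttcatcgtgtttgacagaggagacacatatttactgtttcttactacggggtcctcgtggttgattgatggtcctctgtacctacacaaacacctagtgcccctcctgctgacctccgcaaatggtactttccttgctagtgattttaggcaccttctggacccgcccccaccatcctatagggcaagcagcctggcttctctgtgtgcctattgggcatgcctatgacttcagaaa
Ddx4: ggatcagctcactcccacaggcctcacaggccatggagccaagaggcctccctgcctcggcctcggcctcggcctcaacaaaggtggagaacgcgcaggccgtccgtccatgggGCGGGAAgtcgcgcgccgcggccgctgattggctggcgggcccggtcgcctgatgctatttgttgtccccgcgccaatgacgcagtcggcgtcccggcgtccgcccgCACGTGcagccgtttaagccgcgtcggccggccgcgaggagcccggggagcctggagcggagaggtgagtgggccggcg
Sycp3: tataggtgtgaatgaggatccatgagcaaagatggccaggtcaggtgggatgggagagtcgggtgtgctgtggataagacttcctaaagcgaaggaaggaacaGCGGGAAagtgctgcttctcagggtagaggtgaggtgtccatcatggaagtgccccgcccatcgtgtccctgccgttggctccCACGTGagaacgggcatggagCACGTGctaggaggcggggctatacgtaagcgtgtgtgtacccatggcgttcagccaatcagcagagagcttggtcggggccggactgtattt
Mael: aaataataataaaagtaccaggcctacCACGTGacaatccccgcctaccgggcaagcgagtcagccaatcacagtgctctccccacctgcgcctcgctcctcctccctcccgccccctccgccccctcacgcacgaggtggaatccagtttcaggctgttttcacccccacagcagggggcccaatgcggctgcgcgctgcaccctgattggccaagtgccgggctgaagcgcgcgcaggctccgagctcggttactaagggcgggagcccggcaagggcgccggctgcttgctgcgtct

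Counting from the start site, the E2F core stood in the promoters of Ddx4, 136 bases before the start site, and of Sycp3, 147 bases before it, which is 2 of the 8 genes against 4.6% of 32851 promoters of this length. The E-box stood in Ddx4, Sycp1, Sycp3 and Mael, which is 4 of 8 against 7.15%. Sycp3 held it at 64 and 43 bases before the start. The Dux core GATTNAATC, found in 0.268% of all promoters, and the p53 site, found in 0.00913%, had no match in any of the 8 windows. The windows of Rec8 and Aurkc, the 2 genes with the largest responses in WT cells, had no match to any of the 4 motifs. A match of letters is a description of the sequence and was not tested for binding.

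Total counts ran from 23270358 to 32807053 in WT and p53 KO libraries and from 50796507 to 56795858 in Dux KO libraries, so depth moves with the Dux KO genotype. The count column of Dux KO vehicle library 2 repeats that of Dux KO doxorubicin library 1 in 54532 of 54532 genes and was left out of the tests, which rest on 11 libraries and assume that the lone Dux KO vehicle library varies like the other groups. Its levels below were recovered from its FPKM values. Trp53, the gene for p53, stood at 159 to 193 CPM in WT vehicle libraries, at 72.5 and 39.9 CPM in p53 KO vehicle lines 1 and 2, and at 95.5 and 42.6 CPM in the same lines after drug. Duxf3, the gene for Dux, had 0 counts in all 4 Dux KO libraries, against 670 and 685 counts in drug-treated WT cells. All 10 embryonic stem cell markers were detected in every group, with a summed level of 4220 to 5120 CPM in vehicle libraries. After drug it was 758 to 856 CPM in WT, 2126 to 2591 CPM in p53 KO and 1831 to 2012 CPM in Dux KO cells. The summed level of 10 spermatid and oocyte markers lay between 4.06 and 23.9 CPM over all libraries. In bulk RNA a change in the number of cells that express a gene and a change in RNA per cell cannot be told apart.

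**Figure D1:**
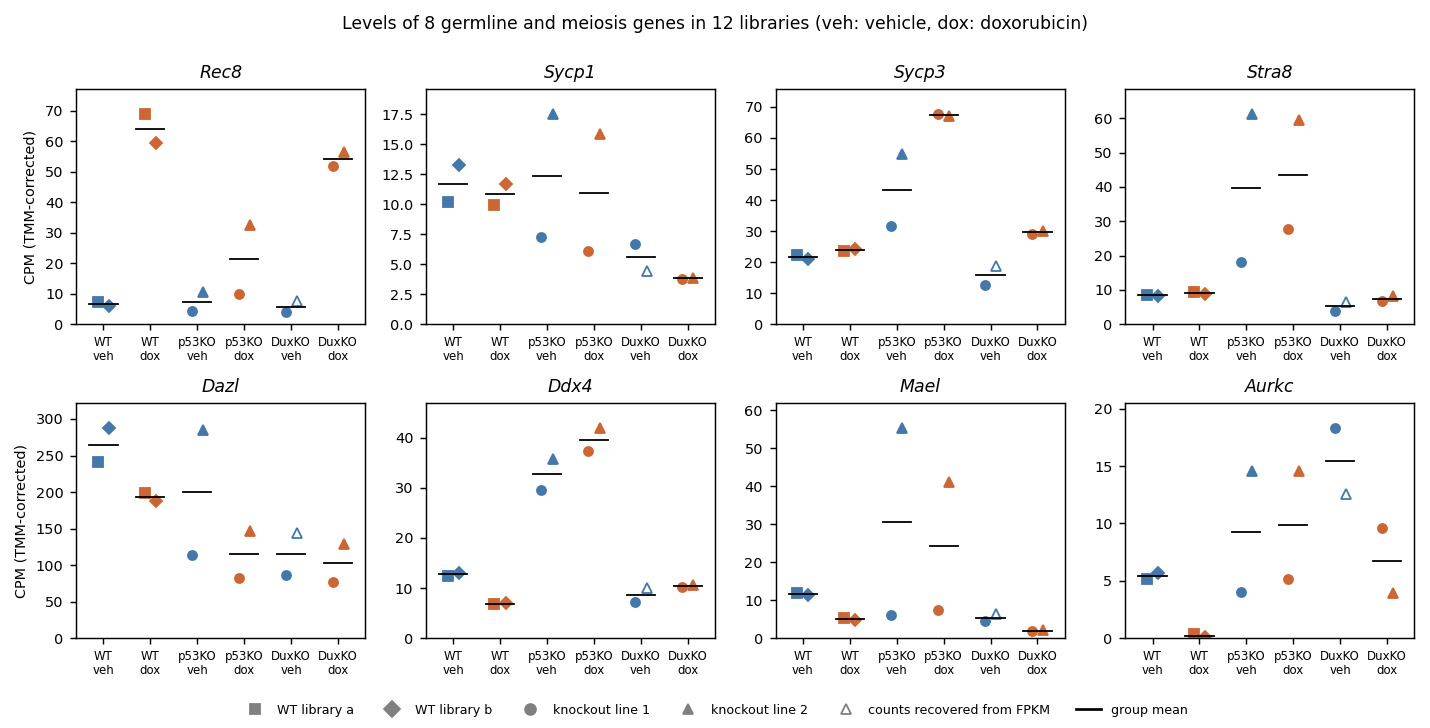
Level of each of the 8 genes in all 12 libraries, in CPM on TMM-corrected library size (linear axis, its own scale for each gene), with blue for vehicle, orange for doxorubicin, a bar for the mean of each group of 2 and an open symbol for the library whose counts were recovered from FPKM. Rec8 stands near 60 CPM only in drug-treated WT and Dux KO cells, Aurkc is near 0 only in drug-treated WT cells, and the 2 p53 KO lines lie far apart for Mael.

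All 8 genes were read in embryonic stem cells before any drug, at very unequal levels. Per gene span, Dazl was the highest of the 8 in WT vehicle libraries at 18.9 ± 2.11 FPKM (SD, n = 2), followed by Sycp3 at 1.61 ± 0.0884 FPKM, Rec8 at 0.930 ± 0.141 FPKM and Aurkc at 0.704 ± 0.0389 FPKM. Stra8 followed at 0.451 ± 0.0156 FPKM, Mael at 0.315 ± 0.0141 FPKM, Ddx4 at 0.239 ± 0.00424 FPKM and Sycp1 at 0.101 ± 0.0170 FPKM. No 2 neighbours in this order overlapped between the 2 libraries. The authors' FPKM divides by the whole gene span, which penalises long genes such as Sycp1 (117602 bases). Per kilobase of exon the order of WT vehicle levels was Dazl, Sycp3, Mael, Stra8, Ddx4, Aurkc, Sycp1 and Rec8, from 69.15 down to 2.29 CPM per exonic kilobase, with Aurkc and Sycp1 overlapping between libraries. On that scale Sycp3 overtook Dazl in p53 KO cells after drug, at 53.25 against 30.07 CPM per exonic kilobase.

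Doxorubicin moved 3 of the 8 genes in WT cells: Rec8 rose, and Aurkc and Ddx4 fell. Across all genes 29.0% were called higher and 23.4% lower in this comparison, together 52.4%, so a count of 3 of 8 is not above the background. The median log2 fold change of the 8 was -0.28 and that of all genes 0.134. In p53 KO cells none of the 8 passed the edgeR test, against 17.4% of all genes (9.31% higher and 8.09% lower), and 2 had an unadjusted p under 0.05. DESeq2 called 1 of the 8 there, and limma on log2 FPKM called 2. With the line as a replicate block 3 of the 8 were called in p53 KO cells (Rec8, Sycp3 and Dazl) and 5 in WT cells. With the recovered vehicle library added to the block 5 were called in Dux KO cells. Without that library the block leaves the Dux KO response as line 1 after drug against line 1 in vehicle, 1 library each, with the spread taken from the other groups. The shares of all genes are of the edgeR fit without the block, so the block, DESeq2 and limma counts have none beside them. The block also raised the p53 KO calls among 86 other germline genes, from 7 to 24 higher and from 6 to 18 lower. In Dux KO cells 2 rose, Rec8 and Sycp3, against 14.5% of all genes called higher, 11.9% called lower and 26.5% called in either direction.

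**Figure D2:**
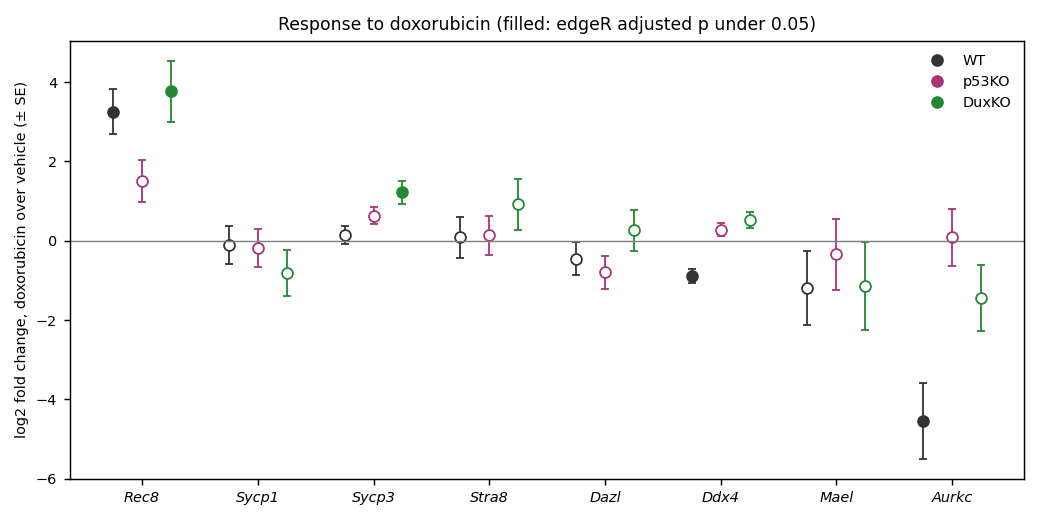
Log2 fold change of each gene, doxorubicin over vehicle, in WT, p53 KO and Dux KO cells, with the standard error of the edgeR fit as bars and filled symbols where the adjusted p was under 0.05. Rec8 lies above 0 in all 3 genotypes, and Aurkc lies at -4.54 in WT cells and near 0 in p53 KO cells.

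Rec8 (ENSMUSG00000002324, chr14:55618037-55625395) encodes the kleisin subunit of meiotic cohesin, the ring that holds sister chromatids together through the first meiotic division. It stood at 7.38 and 6.06 CPM in WT vehicle libraries and at 68.9 and 59.4 CPM after drug. In p53 KO lines 1 and 2 it went from 4.24 and 10.7 CPM to 9.99 and 32.7 CPM. In Dux KO lines 1 and 2 it went from 3.96 and 7.50 CPM to 51.8 and 56.6 CPM. Both drug-treated libraries lay above both vehicle libraries in WT and Dux KO cells, while in p53 KO cells line 1 after drug was below line 2 before it. The rise was 9.54-fold in WT cells (log2 3.25, SE 0.561, edgeR adjusted p = 0.00128) and 13.7-fold in Dux KO cells (log2 3.77, SE 0.769, adjusted p = 0.00695), or log2 3.24 with the recovered vehicle library. In p53 KO cells the log2 fold change was 1.51 (SE 0.531, adjusted p = 0.0805), and with the line as a replicate block it was 1.45 (SE 0.151, adjusted p = 2.9e-05). Without the block, leaving out 1 library at a time moved it from 0.41 to 2.33. Leaving out a p53 KO library sets 1 line against both, so such values also hold the difference between lines. Within p53 KO lines 1 and 2 the ratio of drug to vehicle was 2.36 and 3.05. The p53 KO response was smaller than the WT response by 1.75 on the log2 scale without passing the test (log2 -1.75, SE 0.742, adjusted p = 0.136). With the replicate block that difference was called (log2 -1.81, SE 0.21, adjusted p = 3.14e-05), as it was by DESeq2 (log2 -1.85, adjusted p = 0.0479). Leaving out 1 library moved that difference from -2.84, without p53 KO drug library 2, to -0.93, with the same limit. The Dux KO and WT responses differed by log2 0.52 (SE 0.832, adjusted p = 0.789).

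Aurkc (ENSMUSG00000070837, chr7:6995300-7003091) encodes Aurora kinase C, which works in the chromosomal passenger complex of meiotic cells. It stood at 5.13 and 5.65 CPM in WT vehicle libraries and at 0.386 and 0.0665 CPM after drug, which were 12 and 2 counts. In p53 KO lines 1 and 2 it stood at 4.02 and 14.6 CPM in vehicle and 5.17 and 14.6 CPM after drug, a ratio of 1.285 in line 1 and 1.003 in line 2. In Dux KO lines 1 and 2 it went from 18.3 and 12.6 CPM to 9.63 and 3.90 CPM. The fall in WT cells was log2 -4.54 (SE 0.958, adjusted p = 0.00382). The p53 KO response differed from it by log2 4.63 (SE 1.2, adjusted p = 0.0263), although without WT vehicle library a, WT vehicle library b or WT drug library b that difference was not called (adjusted p = 0.0679, 0.0758 and 0.111). In Dux KO cells the fall was log2 -1.44 (SE 0.838, adjusted p = 0.246), and with the block and the recovered vehicle library together it was called (log2 -1.31, SE 0.3, adjusted p = 0.00461). The Dux KO response differed from the WT response by log2 3.10, and with the block by log2 3.61. It differed by 3.33 with the recovered vehicle library (adjusted p = 0.144). With the block and that library together the difference was 3.225 (adjusted p = 0.00457).

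Sycp3 (ENSMUSG00000020059, chr10:88459569-88473236) encodes a protein of the lateral elements of the synaptonemal complex, the scaffold that joins paired chromosomes. It stood at 22.3 and 20.98 CPM in WT vehicle libraries and 23.7 and 24.1 CPM after drug, a difference that was not called (log2 0.14, adjusted p = 0.606). In p53 KO lines 1 and 2 it stood at 31.8 and 55.0 CPM in vehicle and 67.6 and 67.0 CPM after drug. In Dux KO lines 1 and 2 it went from 12.7 and 18.9 CPM to 29.2 and 30.1 CPM. The drug-treated libraries lay above the vehicle libraries in WT cells and in both knockouts. The rise was called in Dux KO cells (log2 1.22, SE 0.286, adjusted p = 0.0132), and no longer without Dux KO drug library 2 (adjusted p = 0.055). The value of 1.22 sets the lone vehicle library, of line 1, against drug libraries of both lines. With the recovered vehicle library the Dux KO rise was log2 0.90 (adjusted p = 0.0193). In p53 KO cells the rise was log2 0.63 (SE 0.221, adjusted p = 0.0786), and with the block log2 0.68 (adjusted p = 0.00426). Without p53 KO vehicle library 2 it was log2 1.08, which sets line 1 in vehicle against both lines after drug. Against the WT response the Dux KO response was larger by log2 1.08, by 1.06 with the block and by 0.75 with the recovered vehicle library (adjusted p = 0.303). With the block and the recovered vehicle library together it was 0.77 and not called (adjusted p = 0.0853), and without p53 KO vehicle library 1 or 2 it was called (adjusted p = 0.0175 and 0.0183). Sycp3 lies wholly inside Chpt1, a phospholipid synthesis gene on the opposite strand, with 660 bases of exon in common, and the counting was not stated to use strand. Reads of the 2 genes therefore cannot be told apart. The Chpt1 count left after taking away that of Sycp3 lay between 16.9 and 27.2 CPM in the 12 libraries.

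Sycp1 (ENSMUSG00000027855, chr3:102818499-102936100) encodes the transverse filaments of the synaptonemal complex. It stood at 10.1 and 13.2 CPM in WT vehicle libraries and 9.91 and 11.7 CPM after drug, and these overlapped. p53 KO lines 1 and 2 held 7.24 and 17.5 CPM in vehicle and 6.10 and 15.8 CPM after drug. Its level in Dux KO lines 1 and 2 went from 6.72 and 4.45 CPM to 3.79 and 3.86 CPM. No response was called. With the block the Dux KO response was log2 -0.82, the change within line 1 alone. It was log2 -0.53 and not called with the recovered vehicle library added to the block (adjusted p = 0.0714).

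Stra8 (ENSMUSG00000029848, chr6:34920163-34939344) encodes the retinoic-acid-induced factor that starts the meiotic programme. It stood at 8.62 and 8.38 CPM in WT vehicle libraries and 9.27 and 8.84 CPM after drug (log2 0.09, adjusted p = 0.894). Lines 1 and 2 of p53 KO held 18.2 and 61.1 CPM in vehicle and 27.6 and 59.6 CPM after drug, above every WT and Dux KO library. Dux KO lines 1 and 2 went from 3.96 and 6.48 CPM to 6.68 and 8.27 CPM. With the block and the recovered vehicle library together the Dux KO response passed the test (log2 0.54, adjusted p = 0.0313). With the recovered library alone it did not (adjusted p = 0.473). The block alone gave log2 0.75, the change within line 1.

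Dazl (ENSMUSG00000010592, chr17:50279395-50293636) encodes an RNA-binding protein that promotes translation in germ cells. It stood at 241 and 288 CPM in WT vehicle libraries and 199 and 188 CPM after drug, with no overlap. Lines 1 and 2 of p53 KO went from 114 and 285 CPM to 82.7 and 147.0 CPM. Its level in Dux KO lines 1 and 2 was 85.9 and 144 CPM in vehicle and 76.7 and 129 CPM after drug. Over all 11 libraries neither fall was called without the block (adjusted p = 0.39 in WT and 0.216 in p53 KO cells). With it both were (log2 -0.45, adjusted p = 0.00707, and log2 -0.71, adjusted p = 0.000953). Without the block, the p53 KO value was -1.31 when p53 KO vehicle library 1 was left out and 0.01 when vehicle library 2 was. These values set 1 line in vehicle against both lines after drug. The authors' deposited table gives Dazl in WT cells a log2 fold change of -0.415 with an adjusted p of 8.85e-05. The Dux KO value was log2 0.26 without the block, where the lone vehicle library is of line 1 and the drug libraries are of both lines. It was -0.164 with the block, -0.1646 with the recovered library and -0.1666 without Dux KO drug library 2, and none of these was called. Within Dux KO lines 1 and 2 the ratio of drug to vehicle was 0.8925 and 0.8995.

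Ddx4 (ENSMUSG00000021758, chr13:112598333-112652475) encodes Vasa, an RNA helicase of germ granules. It stood at 12.4 and 13.01 CPM in WT vehicle libraries and at 6.76 and 6.98 CPM after drug. In p53 KO lines 1 and 2 it stood at 29.5 and 35.8 CPM in vehicle and 37.3 and 41.9 CPM after drug, above all WT and Dux KO libraries. In Dux KO lines 1 and 2 it went from 7.26 and 10.1 CPM to 10.1 and 10.6 CPM. The fall in WT cells was log2 -0.89 (SE 0.167, adjusted p = 0.00204). In p53 KO cells the log2 fold change was 0.28 (adjusted p = 0.257). In Dux KO cells it was 0.51, or 0.25 with the recovered vehicle library (adjusted p = 0.369), and none of these was called. The p53 KO response differed from the WT response by log2 1.17 (SE 0.231, adjusted p = 0.00831) and the Dux KO response by log2 1.40 (SE 0.265, adjusted p = 0.0199). The Dux KO difference was not called with the recovered vehicle library (log2 1.13, adjusted p = 0.0554), nor without any single WT or Dux KO drug library or either WT vehicle library (adjusted p from 0.0621 to 0.0906). With the recovered library and the block together it was (log2 1.15, adjusted p = 0.0062).

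Mael (ENSMUSG00000040629, chr1:166201201-166238747) encodes Maelstrom, a piRNA-pathway protein needed to silence transposons in spermatocytes. It stood at 11.9 and 11.4 CPM in WT vehicle libraries and at 5.28 and 4.85 CPM after drug. In p53 KO it stood at 6.00 CPM in line 1 and 55.3 CPM in line 2 before drug, and at 7.35 and 41.3 CPM after it. Dux KO lines 1 and 2 went from 4.43 and 6.24 CPM to 1.81 and 2.18 CPM. The falls in WT and Dux KO cells did not pass the test (log2 -1.20, SE 0.934, adjusted p = 0.304, and log2 -1.15, SE 1.11, adjusted p = 0.495). The spread they were set against includes that between the p53 KO lines. With the block the WT value was log2 -1.20 (SE 0.191, adjusted p = 0.000138) and the Dux KO value -1.29, the change within line 1 alone. With the block and the recovered vehicle library together the Dux KO value was -1.41 (SE 0.203, adjusted p = 0.000254). The authors' deposited table gives Mael in WT cells a log2 fold change of -1.16 with an adjusted p of 8.29e-06. The p53 KO response differed from the WT one by log2 0.86 (adjusted p = 0.702), and with the block by 1.09 (adjusted p = 0.00574).

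Of these differences in response, 2 of 8 genes were called for p53 KO, both higher, against 9.90% of all genes called higher, 10.3% lower and 20.2% called in either direction. For Dux KO it was 1 of 8, against 2.10% higher, 3.15% lower and 5.25% in either direction. The knockouts were compared with the same WT libraries, so their differences share those values.

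Before drug, Ddx4 was higher in p53 KO than in WT cells (log2 1.36, SE 0.165, adjusted p = 0.00901), the only one of the 8 genes called there, against 0.140% of all genes called higher, 0.747% lower and 0.887% in either direction. Without WT vehicle library a or b it was not called (adjusted p = 0.155 and 0.123). Stra8 (log2 2.22, adjusted p = 0.102) and Sycp3 (log2 1.006, adjusted p = 0.0852) were not called by edgeR and were by DESeq2 (adjusted p = 0.000945 and 0.00276). Leaving out 1 library moved Stra8 from 1.10 to 2.84 and Sycp3 from 0.56 to 1.35. Without p53 KO vehicle library 1 only line 2, the higher line for both genes, stands for p53 KO before drug. With the block Stra8 and Sycp3 were also called, at log2 1.99 (adjusted p = 9.77e-06) and 0.97 (adjusted p = 0.00177). The block also called Dazl lower (log2 -0.55, adjusted p = 0.0139) and Mael higher (log2 0.68, adjusted p = 0.0308), the latter no longer with the recovered library added (adjusted p = 0.0658). The block takes the spread between lines out of this comparison of genotypes: Mael was below both WT vehicle libraries in line 1 and above them in line 2, and Dazl in line 2 lay within the WT range. In Dux KO cells before drug the edgeR test called none of the 8, against 1.00% of all genes (0.656% higher and 0.346% lower), while 3 had an unadjusted p under 0.05 and DESeq2 called 2, Ddx4 (log2 -0.85) and Dazl (log2 -1.66). With the block and the recovered library together Ddx4 (log2 -0.57, adjusted p = 0.0361), Dazl (log2 -1.255, adjusted p = 0.000996), Stra8 (log2 -0.75, adjusted p = 0.0304) and Mael (log2 -1.15, adjusted p = 0.00542) were lower. The block with the lone vehicle library gave log2 -0.77, -1.25, -0.95 and -1.26 in the same order. Without the block, Sycp3 was lower when p53 KO vehicle library 1 or 2 was left out (log2 -0.77, adjusted p = 0.0479 and 0.0491). With the block and the recovered library together Sycp1 was also lower (log2 -1.09, adjusted p = 0.0123), and Aurkc was higher (log2 1.496, adjusted p = 0.0136).

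The 2 p53 KO lines stood apart in most of these genes. Line 2 was above line 1 in 6 of the 8 genes over both treatments (adjusted p under 0.05 in the fit with the block), against 9.63% of all genes called higher, 15.4% lower and 25.1% in either direction. This comparison and the genes named from it were chosen after the values had been seen. The median log2 difference of the 8 was 1.37 and that of all genes -0.0185. Mael was 7.17-fold higher in line 2 (log2 2.84, SE 0.19, adjusted p = 1.61e-06), by 9.23-fold in vehicle and 5.61-fold after drug. Aurkc was 3.19-fold higher (log2 1.67, adjusted p = 0.000726), Rec8 2.92-fold (log2 1.55, adjusted p = 2.55e-05) and Stra8 2.68-fold (log2 1.42, adjusted p = 5.64e-05). Sycp1 was 2.50-fold higher (log2 1.32, adjusted p = 0.000414) and Dazl 2.11-fold (log2 1.08, adjusted p = 9.24e-05). Ddx4 (log2 0.22, adjusted p = 0.229) and Sycp3 (log2 0.38, adjusted p = 0.0915) were not called, and without either p53 KO drug library Sycp3 was (log2 0.79). Each line is 1 culture per treatment, so the difference is between these lines.

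**Figure D3:**
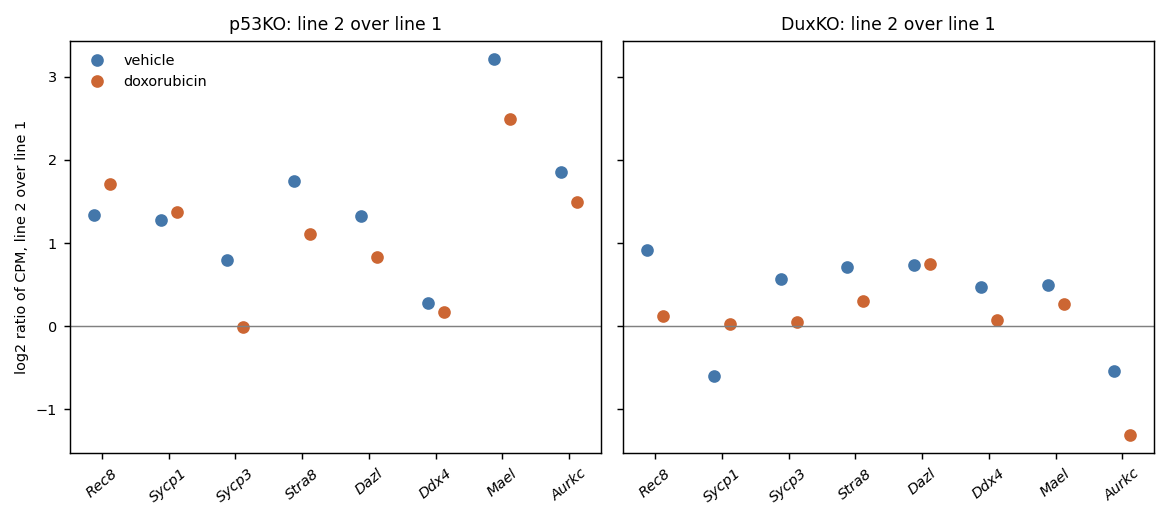
Log2 ratio of CPM in line 2 over line 1 for each gene, in p53 KO cells (left) and Dux KO cells (right), with blue for vehicle and orange for doxorubicin and a line at 0 for equal levels. In p53 KO cells all points but Sycp3 after drug lie above 0, up to the 9.23-fold of Mael, while in Dux KO cells, whose vehicle library 2 was recovered from FPKM, the highest is the 1.89-fold of Rec8 in vehicle.

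Many, but not all, other germline genes were higher in p53 KO line 2. Of 88 genes in 6 lists 86 passed the filter on low counts, and of these 36 were higher (41.9%) and 8 lower (9.3%), with a median log2 difference of 0.51. By list, 13 of 27 meiotic recombination genes were higher and 1 lower, 10 of 20 germ cell RNA-binding and primordial germ cell genes were higher and 1 lower, and 8 of 22 piRNA genes were higher and 3 lower. Of 6 synaptonemal complex genes 3 were higher and 1 lower. Of 8 meiotic entry genes 1 was higher and 2 lower (median log2 -0.021), and of 3 meiotic cohesin genes 1 was higher (median log2 0.022). Slc25a31, a germ cell ADP/ATP carrier, was higher by log2 2.81 (SE 0.275, adjusted p = 2.51e-05), and Brdt, a testis bromodomain protein, by log2 2.74 (SE 0.249, adjusted p = 1.57e-05). Rnf212, a crossover factor, was higher by log2 2.86 (SE 0.363, adjusted p = 0.000154), and Smc1b, a meiotic cohesin subunit, by log2 1.62 (SE 0.114, adjusted p = 2.4e-06). The combined count of genes higher in line 2 was 26 when p53 KO vehicle library 2 was left out. Among 18 PRC1.6 and silencing genes 1 was higher and 3 lower, with Tfdp1, the DNA-binding partner of E2F proteins, lower (log2 -0.68, adjusted p = 0.000287). Of 10 trophectoderm markers 1 was higher and 2 lower, against 9.63% and 15.4% of all genes, so these counts are close to the background. The 2 lower were Krt8, a keratin, at log2 -3.64 (adjusted p = 1.13e-06), and Krt18 at log2 -1.54. Trp53 itself was lower in line 2. The part of these genes in the germline difference was not tested.

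**Figure D4:**
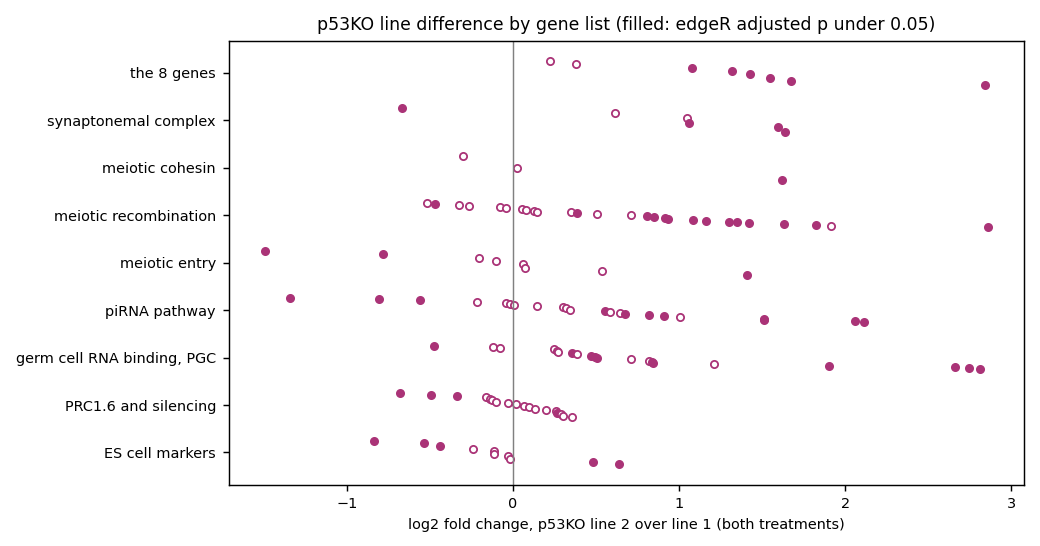
Log2 difference between p53 KO line 2 and line 1 over both treatments for every tested gene of the 8 and of 8 lists, with each point 1 gene, filled where the edgeR adjusted p was under 0.05, and small vertical steps only to separate points. The 8 genes lie above 0, as do most called recombination and germ cell genes, and the genes of PRC1.6 and silencing stay between -0.68 and 0.36.

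The drug response of the wider germline set was mixed. Dux KO values of these lists set the lone vehicle library, of line 1, against drug libraries of both lines. They therefore also hold the difference between lines, except where the block with the recovered library is named. In WT cells 17 of the 86 genes rose (19.8% against 29.0% of all genes) and 21 fell (24.4% against 23.4%), with a median log2 of 0.15 against 0.134 for all genes. The drug raised 18 in Dux KO cells (20.9% against 14.5%) and 11 fell (12.8% against 11.9%), with a median log2 of 0.67 against 0. The p53 KO counts were 7 that rose (8.14% against 9.31%) and 6 that fell (6.98% against 8.09%), and with the block 24 and 18. Without WT drug library a 2 rose there. In Dux KO cells the block with the recovered library gave 32 and 19, and 4 fell without Dux KO drug library 2. In the piRNA pathway list 8 of 22 genes rose and 4 fell in WT cells (36.4% and 18.2%, against 29.0% and 23.4% of all genes), and in Dux KO cells 9 rose and 2 fell (40.9% and 9.09%, against 14.5% and 11.9%). Tdrd5, a Tudor protein of piRNA granules, went from 0.544 and 0.748 CPM to 25.3 and 25.2 CPM in WT cells (log2 5.28, SE 0.942, adjusted p = 0.00156). Tdrd9, a helicase of the same pathway, went from 3.50 and 2.69 to 30.9 and 28.6 CPM (log2 3.26, SE 0.36, adjusted p = 0.000111). Tdrd9 also rose in p53 KO cells (log2 1.66, adjusted p = 0.0162). In Dux KO cells Tdrd7, a further Tudor protein, was higher after drug by log2 3.31. It stood at 0.621 CPM in vehicle line 1 and 1.17 CPM in recovered vehicle line 2, and at 5.89 and 6.52 CPM after drug.

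Of 27 meiotic recombination genes 6 rose and 7 fell in WT cells (22.2% and 25.9%, against 29.0% and 23.4% of all genes). Tex15 went from 26.6 and 30.3 to 126 and 134 CPM (log2 2.20, SE 0.396, adjusted p = 0.00165). In Dux KO cells Rec114, a partner of the break-forming machinery, was higher after drug by log2 2.51. It stood at 19.6 CPM in vehicle line 1 and 38.4 CPM in recovered vehicle line 2, and at 107 and 117 CPM after drug. Rec114 overlaps Nptn and so may share its reads. Among 8 meiotic entry genes 1 rose and 2 fell in WT cells. The gene that rose was Cyp26b1, the enzyme that breaks down retinoic acid (log2 3.24, SE 0.568, adjusted p = 0.00141). In Dux KO cells it was higher after drug by log2 4.82. It stood there at 0.505 CPM in vehicle line 1 and 1.24 CPM in recovered vehicle line 2, and at 12.8 and 15.95 CPM after drug. In the germ cell RNA-binding and primordial germ cell list 2 of 20 rose and 5 fell in WT cells. Prdm14, a factor of primordial germ cells that stem cells also use, fell from 39.98 and 40.57 to 6.82 and 5.42 CPM (log2 -2.72, adjusted p = 1.65e-05), and Kit, a germ cell receptor, was also lower (log2 -2.38, adjusted p = 4.43e-05). Syce2, a central-element protein of the synaptonemal complex, fell from 74.1 and 80.1 to 20.9 and 18.3 CPM (log2 -1.98, adjusted p = 0.000349). It overlaps Gcdh.

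The part of PRC1.6 and silencing genes in the germline values was not tested. Their list held 18 tested genes. Of these 11 fell in WT cells (61.1% against 23.4% of all genes), 7 in p53 KO cells (38.9% against 8.09%) and 10 in Dux KO cells (55.6% against 11.9%), and the others were not called. In WT cells Ehmt2, the H3K9 methyltransferase G9a, went from 138 and 132 to 41.8 and 36.6 CPM (log2 -1.78, SE 0.131, adjusted p = 1.59e-05). Wdr5 fell by log2 -1.78 (adjusted p = 1.75e-05) and Cbx3, the heterochromatin protein HP1 gamma, by log2 -1.61 (adjusted p = 0.000107). The medians of the list were log2 -0.62, -0.31 and -0.57 in WT, p53 KO and Dux KO cells, against 0.134, 0.183 and 0 for all genes. Without WT vehicle library a the WT count was 5, and on the log2(FPKM + 0.1) scale limma called 2 lower and 1 higher in p53 KO and 4 lower in Dux KO cells. All 10 embryonic stem cell markers also fell in WT cells, and 8 of 10 in each knockout. The summed level of 10 fibroblast markers was 7.33 to 8.08 CPM in WT vehicle libraries, with Lum, Dcn and Twist2 at 0, and 42.5 to 43.8 CPM after drug. It went from 8.39 to 9.21 CPM up to 14.3 to 14.7 CPM in p53 KO and from 2.91 to 4.1 CPM up to 17.7 to 24.2 CPM in Dux KO cells. Of 10 trophectoderm markers 6 rose in WT cells, where their sum was 48.1 to 51.5 CPM before and 90.9 to 132.9 CPM after drug. Of these markers 2 rose and 1 fell in p53 KO cells (sum 28.5 to 109.8 CPM before and 53.1 to 83.4 CPM after), and in Dux KO cells 1 rose (36.7 to 55.8 CPM and 34.6 to 48.0 CPM). Of 10 primitive endoderm markers 4 rose and 1 fell in WT cells, with a lower sum after drug (148.1 to 151.4 CPM before and 99.2 to 111.4 CPM after). In p53 KO cells 4 of these rose and 1 fell (70.3 to 113.7 CPM and 102.4 to 106.2 CPM), and in Dux KO cells 3 rose and 1 fell (128.5 to 160.0 CPM and 109.0 to 115.8 CPM). Across all genes 29.0% were called higher in WT and 9.31% in p53 KO cells, and the Dux KO share is given above. The count of trophectoderm markers that rose in Dux KO cells was not above its share. The 4 of 10 primitive endoderm markers that rose in WT cells lay near theirs. The other counts of these markers that rose were above their shares, though each list holds only 10 genes. The part of these marker values in the germline values was not tested.

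Among 19974 genes with a mean of at least 1 CPM that do not overlap the gene in question, the levels most like Rec8 over the 11 libraries were those of Fam186a (r = 0.9908, rho = 0.982), Gm21917 (r = 0.9792) and Fank1 (r = 0.9786). For Ddx4 they were Mea1 (r = 0.9761, rho = 0.945), Ppdpf (r = 0.9723) and Gm11739 (r = 0.9606). For Aurkc they were Gigyf1 (r = 0.9942, rho = 0.891), Gm12463 (r = 0.9933) and Gm5113 (r = 0.9865), and for Sycp3 BC022960 (r = 0.9464, rho = 0.927), Bspry (r = 0.9378) and Gdpd1 (r = 0.9288). Each r is Pearson's on log2 CPM, and the libraries share genotype, drug and depth, so these are descriptions of the pattern with no test.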

How the data were processed

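The tests start from whole-number gene counts that the authors deposited for each library. A separate table from the authors holds deposited FPKM values, with log2 fold changes and adjusted p-values of comparisons the authors made. The submitters' processing notes name TopHat2, DESeq, DESeq2 and mm10. No version, counter, annotation or strand setting was given in the sources used. In at least 98.1% of genes the FPKM length was within 1% of the gene span, and in at most 1.1% within 1% of the exonic length. The odd share among counts of 500 or more was 26.4% to 33.4%, so counts are not all single reads, and no counting intervals are given. GENCODE M21 held 54409 of 54532 gene identifiers. Another 6 columns of group averages were not used.

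The test was edgeR 4.0.16 (R 4.3.3) with TMM scaling ( filterByExpr with a minimum count of 10, a mean per group over 11 libraries, glmQLFit and glmQLFTest, 5 residual degrees of freedom), with Benjamini-Hochberg adjustment over 28643 genes and calls at an adjusted p under 0.05. Standard errors are the log2 fold change divided by the square root of F. CPM uses the TMM-corrected library size. The counts of Dux KO vehicle library 2 were recovered from its FPKM: 100.0% of 2953 low values were whole reads to within 0.15, the total was 55643626, and in libraries with known counts at least 96.1% of genes came back within 1 read or 1%. Alternatives were RLE scaling, no filter, DESeq2 1.42.0, the recovered library, the block, both together, limma 3.58.1 on log2(FPKM + 0.1) and log2(FPKM + 1), and leaving out each of the 11 libraries. Same-numbered knockout libraries come from the same line, which pairs them. Their deviations from group means correlated at r = 0.432 in p53 KO and 0.184 in Dux KO over 28643 genes. The block codes the line within each knockout and leaves WT libraries unpaired. Over 11 libraries it leaves no spread within Dux KO, so Dux KO values of that fit are given as effect sizes. Tests were run on simulated counts with the dispersions fitted here, where edgeR recovered most 4-fold but few 2-fold changes, and limma recovered fewer with a larger share of false calls. Settings of that simulation and of limma were changed while being tried and then set back, to the fitted dispersions and to limma's plain form.

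The 8 genes and the lists were chosen with earlier results of these data known. From each list at most 3 called genes with the largest change were named for WT cells and at most 2 for each knockout. There were 7 planned comparisons. The comparison of p53 KO lines, the combined list of 86 genes and names from baselines or lines were added after the values were seen.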

Additional observations from a re-analysis of the deposited data

Results flagged for a closer look

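The response of Ddx4 to doxorubicin differed between p53 KO and WT cells by log2 1.166 and between Dux KO and WT cells by log2 1.404, each by a test of the difference itself in edgeR (adjusted p = 0.00831 and 0.0199). Both differences share the WT libraries, and the Dux KO one was not called with the recovered vehicle library. The response of Aurkc differed between p53 KO and WT cells by log2 4.629 (adjusted p = 0.0263), a value that rests on 12 and 2 counts in the drug-treated WT libraries.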

How the results depend on the processing

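Of the 8 genes, 3 (the WT response), 0 (the p53 KO response), 2 (the Dux KO response), 2 (the p53 KO difference in response), 1 (the Dux KO difference in response), 1 (p53 KO before drug) and 0 (Dux KO before drug) were called. With the line as a replicate block the counts were 5 (the WT response), 3 (the p53 KO response), 4 (the p53 KO difference in response) and 5 (p53 KO before drug). For Dux KO that fit has 1 vehicle library and no spread of its own, so no count is given. Adding the recovered Dux KO vehicle library to the block gave 5, 3, 5, 4, 2, 4 and 6, in the order first given. DESeq2 called 3, 1, 2, 3, 1, 3 and 2. limma called 3, 2, 2, 1, 1, 1 and 0 on log2(FPKM + 0.1) and 1, 2, 2, 1, 0, 0 and 0 on log2(FPKM + 1). The recovered library alone gave 0 for the Dux KO difference in response. Leaving out 1 library at a time gave counts from 0 to 2 for the p53 KO response, 1 to 2 for the Dux KO response, 1 to 3 for the p53 KO difference in response, 0 to 2 for the Dux KO difference in response, 0 to 3 for p53 KO before drug and 0 to 1 for Dux KO before drug. Where a knockout library was left out, 1 line stood alone in its group, so those counts also hold the difference between lines. No share of all genes stands beside the counts of these alternatives, so they are not set against a background. No reversed value was called. With limma on log2(FPKM + 0.1) the log2 sign turned for Sycp1 in the p53 KO response (0.07192), Mael in the p53 KO response (0.1529), Dazl in the p53 KO difference in response (0.00717), Sycp1 in the p53 KO difference in response (0.1062), Rec8 in p53 KO before drug (-0.01864) and Sycp1 in p53 KO before drug (-0.01041). With limma on log2(FPKM + 1) the log2 sign turned for Sycp1 in the p53 KO response (0.01615), Mael in the p53 KO response (0.02769), Dazl in the p53 KO difference in response (0.01301) and Sycp1 in the p53 KO difference in response (0.02265). With the block the log2 sign turned for Dazl in the Dux KO response (-0.164), Mael in the Dux KO difference in response (-0.08893), Rec8 in p53 KO before drug (-0.01153) and Sycp1 in p53 KO before drug (-0.0574). With the recovered library the log2 sign turned for Dazl in the Dux KO response (-0.1646), Rec8 in the Dux KO difference in response (-0.02681) and Mael in the Dux KO difference in response (-0.2311). With the block and the recovered library the log2 sign turned for Dazl in the Dux KO response (-0.1671), Mael in the Dux KO difference in response (-0.2209), Rec8 in p53 KO before drug (-0.008202) and Sycp1 in p53 KO before drug (-0.06035). With RLE scaling the log2 sign turned for Stra8 in the p53 KO difference in response (-0.06822) and Mael in the Dux KO difference in response (-0.0111). With DESeq2 the log2 sign turned for Stra8 in the p53 KO difference in response (-0.06755) and Mael in the Dux KO difference in response (-0.01196). Leaving out a library also turned signs. In the WT response the log2 range was, for Sycp1, from -0.3254 to 0.09058. In the p53 KO response the log2 range was, for Dazl, from -1.313 to 0.0107, Stra8 from -0.5226 to 1.258, Sycp1 from -1.018 to 0.5962, Mael from -2.06 to 2.017 and Aurkc from -0.8464 to 1.295. In the Dux KO response the log2 range was, for Dazl, from -0.1666 to 0.5866. In the p53 KO difference in response the log2 range was, for Dazl, from -0.8638 to 0.4602, Stra8 from -0.6128 to 1.167, Sycp1 from -0.9029 to 0.7096 and Mael from -0.861 to 3.215. In the Dux KO difference in response the log2 range was, for Mael, from -0.09161 to 0.1779. In p53 KO before drug the log2 range was, for Dazl, from -1.215 to 0.1086, Rec8 from -0.6647 to 0.6726, Sycp1 from -0.6928 to 0.5787, Mael from -0.9567 to 2.249 and Aurkc from -0.4232 to 1.431. In the p53 KO lines the log2 range was, for Sycp3, from -0.01357 to 0.7918. Leaving out Dux KO vehicle library 1 leaves no deposited Dux KO vehicle count, so no Dux KO value exists there. Of 472 gene values under alternatives that keep all libraries 390 kept their sign and side of the threshold, as did 566 of 624 with a library left out and 856 of 961 for named genes of other lists, where the other 105 lost their call. The median over all genes moved with RLE scaling by 0.1 in the WT response and by -0.122 in the p53 KO difference in response. Where a value or call changed, the cause was not tested.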

Other observations

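Of 12 genes of mitotic cohesin and its regulators 8 fell in WT cells (66.7% against 23.4% of all genes called lower), 9 in p53 KO cells (75.0% against 8.09%) and 7 in Dux KO cells (58.3% against 11.9%), and the others were not called. Among the meiotic subunits other than Rec8, Smc1b was lower in WT cells after drug, at 43.7 and 52.5 CPM before and 15.7 and 14.8 CPM after it (log2 -1.66, edgeR adjusted p = 0.0344), and was not called without either WT vehicle library, either WT drug library or either Dux KO drug library (adjusted p from 0.054 to 0.132). Pds5a, a cohesin regulator, went from 248 and 262 to 94.3 and 102 CPM in WT cells (log2 -1.38, edgeR adjusted p = 7.75e-05). In p53 KO cells Stag1, a cohesin subunit, fell by log2 -1.72 (adjusted p = 0.00171). On the log2(FPKM + 1) scale limma called 5, 2 and 0 of the 12 lower. Aurkb, the mitotic relative of Aurkc, went from 73.7 and 71.5 to 56.0 and 46.99 CPM in WT cells (log2 -0.50, adjusted p = 0.018), the only 1 of 5 chromosomal passenger and Aurora genes called there, and it was not called without WT vehicle library a or b or WT drug library b (adjusted p = 0.0866, 0.0677 and 0.0594).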
